A study of Mus musculus with 10 samples.

Results

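Regions that were open in mouse embryonic stem cells and in none of the earlier stages of reprogramming numbered 16521. The assay was ATAC-seq, which uses a transposase to place sequencing adapters in accessible DNA. The authors deposited 1 list of peaks for each of 10 libraries. The peaks of all 10 lists were merged where they overlapped, which gave 208851 regions, and a library was taken to have a region when 1 of its peaks overlapped it by at least 1 bp. A region was kept when both ESC libraries had it and none of the 8 libraries of the other stages did. These ESC-only regions were 7.91% of all merged regions and 28.1% of the 58800 regions listed in both ESC libraries. The regions were chosen by the presence and absence of peaks in these lists, so the absence of earlier peaks is the definition and not a result. No test was made on the regions: all values below describe them, with 2 libraries per stage.

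The study followed fibroblasts on their way to induced pluripotency, with 2 libraries at each of 5 stages. The fibroblasts (MEF) were of a C57BL/6 x 129 background and carried 2 transgenes: the polycistronic factor cassette OKSM (Oct4, Klf4, Sox2, Myc) at Col1a1, and at Rosa26 the M2rtTA activator, which works in the presence of doxycycline. They were sampled in fibroblast medium without doxycycline. DAY3, DAY6 and DAY9 cells were the same kind of cells after 3, 6 and 9 days in stem cell medium with 1 ug/ml doxycycline and 50 ug/ml ascorbic acid. DAY6 and DAY9 cells were sorted for the surface marker SSEA1, while MEF, DAY3 and ESC cells were unsorted. The ESC were V6.5, a single line without the cassette, also C57BL/6 x 129, and were grown with LIF on irradiated feeder cells. Line, medium and feeder cells therefore differ together with the ESC label. Sorting sets only DAY6 and DAY9 apart from ESC, and the labels give doxycycline for DAY3, DAY6 and DAY9 alone. The parts of all these in the ESC-only regions cannot be told apart. The submitters describe their replicates as biological, and the labels name no separate cultures or animals.

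The lists held between 45497 peaks (DAY3 replicate 2) and 88980 peaks (ESC replicate 2), and both ESC lists were longer than every earlier list. The start windows of 13 of 14 core and naive pluripotency genes with a known start overlapped a region listed in both ESC libraries, and Pou5f1 was the exception. Another 15657 regions were listed in ESC replicate 1 alone of the 10 libraries, and 18585 in ESC replicate 2 alone. With either ESC library left out, the count of ESC-only regions was 35350 (without replicate 1) or 32655 (without replicate 2). Leaving out an earlier library gave between 16570 and 17666 regions.

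Pluripotent cells keep the genes of their own network active through enhancers that often lie far from the gene, bound by factors such as Oct4, Sox2, Nanog, Esrrb and Klf proteins. Chromatin at such elements is often closed in fibroblasts and can open late in reprogramming. Many germ line genes have CpG-rich promoters that are held silent in somatic cells by DNA methylation, and in stem cells by repressors that include E2F6 and the MGA-MAX complex, which reads the E-box. Families of KRAB zinc finger genes lie in tandem arrays and encode repressors of transposable elements.

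Gene starts show the ESC-only regions at base resolution, since the RefSeq start table (GRCm38.p6) gives their sequence. Each sequence printed here is the 200 bases directly before the gene start, 5′ to 3′ on the gene's strand, and each lies wholly inside an ESC-only region. The first 5 belong to genes of the germ line list: Sycp3 (a protein of the synaptonemal complex), Stk31 (a testis kinase), Hormad1 (a meiotic chromosome protein), Ddx4 (the germ cell RNA helicase Vasa) and Slc25a31 (a testis ADP/ATP carrier). They are shown because the E-box CACGTG, in capitals, was found at 8 of the 10 germ line starts that had an ESC-only region.
Sycp3, chr10:88459387-88459586, plus strand: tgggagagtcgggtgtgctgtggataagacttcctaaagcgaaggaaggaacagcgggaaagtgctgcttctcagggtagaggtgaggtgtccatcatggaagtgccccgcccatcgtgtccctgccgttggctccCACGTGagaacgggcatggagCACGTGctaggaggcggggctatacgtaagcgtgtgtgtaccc
Stk31, chr6:49395339-49395538, plus strand: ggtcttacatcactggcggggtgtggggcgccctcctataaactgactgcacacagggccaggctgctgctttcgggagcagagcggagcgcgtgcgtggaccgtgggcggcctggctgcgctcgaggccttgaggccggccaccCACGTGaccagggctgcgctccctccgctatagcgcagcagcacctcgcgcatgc
Hormad1, chr3:95559477-95559676, plus strand: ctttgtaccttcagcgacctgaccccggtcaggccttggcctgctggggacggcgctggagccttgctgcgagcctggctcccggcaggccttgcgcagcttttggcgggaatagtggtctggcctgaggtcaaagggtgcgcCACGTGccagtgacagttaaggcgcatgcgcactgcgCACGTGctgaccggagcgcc
Ddx4, chr13:112652311-112652510, minus strand: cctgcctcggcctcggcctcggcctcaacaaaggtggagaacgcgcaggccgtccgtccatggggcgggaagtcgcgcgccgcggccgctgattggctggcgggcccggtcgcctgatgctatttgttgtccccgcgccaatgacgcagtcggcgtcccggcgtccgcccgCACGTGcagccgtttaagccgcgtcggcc
Slc25a31, chr3:40708671-40708870, plus strand: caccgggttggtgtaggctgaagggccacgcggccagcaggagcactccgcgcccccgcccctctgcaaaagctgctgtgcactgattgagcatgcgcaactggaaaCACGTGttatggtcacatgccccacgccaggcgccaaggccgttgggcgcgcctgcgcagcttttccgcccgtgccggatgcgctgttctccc

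Next come the starts of pairs from tandem families, with the longest run that both members of a pair share in capitals. They are shown because related copies in 1 array each had an ESC-only region at the start. Gm31714 and 2410141K09Rik lie in 1 array on chromosome 13 and share a run of 32 bases (91.7% identity over the 300-base start windows), and Zfp936 and Zfp977 lie in 1 array on chromosome 7 and share 30 bases (89.8%).
Gm31714, chr13:65415123-65415322, minus strand: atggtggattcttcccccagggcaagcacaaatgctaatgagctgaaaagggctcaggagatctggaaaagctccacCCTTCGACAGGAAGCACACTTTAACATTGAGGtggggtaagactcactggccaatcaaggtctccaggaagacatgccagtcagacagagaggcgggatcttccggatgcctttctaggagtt
2410141K09Rik, chr13:66441119-66441318, minus strand: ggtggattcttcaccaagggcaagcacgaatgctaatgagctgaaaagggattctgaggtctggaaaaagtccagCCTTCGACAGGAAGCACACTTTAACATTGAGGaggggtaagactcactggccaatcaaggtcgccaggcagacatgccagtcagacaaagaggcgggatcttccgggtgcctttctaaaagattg
Zfp936, chr7:43177390-43177589, plus strand: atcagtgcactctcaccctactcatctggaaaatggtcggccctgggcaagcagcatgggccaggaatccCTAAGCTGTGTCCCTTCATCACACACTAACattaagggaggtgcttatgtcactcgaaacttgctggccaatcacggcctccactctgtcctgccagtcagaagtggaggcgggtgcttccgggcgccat
Zfp977, chr7:42592546-42592745, minus strand: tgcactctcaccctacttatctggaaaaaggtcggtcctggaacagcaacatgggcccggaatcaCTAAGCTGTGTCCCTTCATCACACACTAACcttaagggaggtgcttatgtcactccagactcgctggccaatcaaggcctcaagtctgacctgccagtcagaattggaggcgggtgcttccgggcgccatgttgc

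The last pair are Triml2, a gene of the tripartite motif family, and Mageb16, an X-linked gene of the MAGE family. Their ESC-only regions ranked directly after that of Gm31714 among protein-coding starts, by the lower of their percentiles in the ESC lists. Their CG dinucleotides are in capitals, and the 200 bases held 7 of them in Triml2 and 3 in Mageb16.
Triml2, chr8:43180336-43180535, plus strand: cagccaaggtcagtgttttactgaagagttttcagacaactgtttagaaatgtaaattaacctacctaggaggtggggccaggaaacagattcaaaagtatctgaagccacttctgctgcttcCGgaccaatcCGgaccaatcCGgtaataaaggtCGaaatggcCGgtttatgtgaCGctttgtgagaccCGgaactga
Mageb16, chrX:79671436-79671635, minus strand: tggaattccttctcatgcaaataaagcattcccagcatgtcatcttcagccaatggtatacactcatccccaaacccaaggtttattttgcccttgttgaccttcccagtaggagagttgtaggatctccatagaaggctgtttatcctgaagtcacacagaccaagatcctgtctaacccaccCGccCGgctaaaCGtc

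The ESC-only regions lay mostly away from gene starts. Only 695 of them (4.21%) were within 1 kb of either end of a protein-coding gene, against 31.0% of the 42279 other ESC regions, which had a peak in 1 or more earlier libraries. Either end was used because the gene table carries no strand. Among the 12551 ESC regions without a MEF peak that were listed in both DAY9 libraries the share was 8.88%, and among the 15359 regions present in all 10 libraries it was 64.3%. Of the 17371 regions found in both MEF libraries alone, 2.96% were near a gene end. Regions listed at 1 stage alone were thus low in gene ends at either end of the series, and the ESC-only share was above the MEF-only share.

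**Figure D1:**
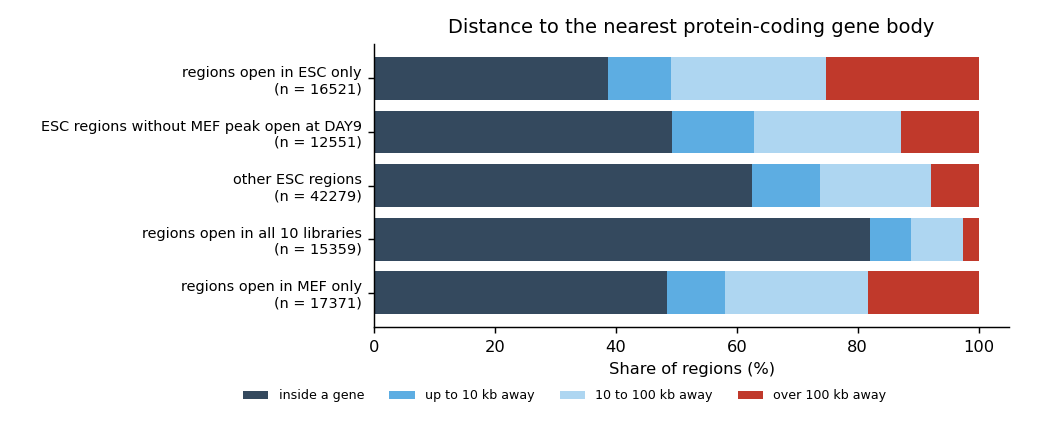
Bars give the share of regions (x axis, %) by distance to the nearest protein-coding gene body, for the ESC-only regions and 4 other sets (rows, with their numbers). The ESC-only regions have the smallest part inside genes (38.6%) and the largest part over 100 kb away (25.2%) of the 5 sets.

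Gene bodies held fewer of the ESC-only regions as well. Counting every annotated gene, 48.3% were inside one, against 71.4% of other ESC regions and 58.3% of MEF-only regions. For protein-coding genes alone the shares were 38.6%, 62.5% and 48.4%. The plot of distances to coding genes shows the same order in its far classes: 4166 ESC-only regions (25.2%) were over 100 kb from any coding gene, against 7.91% of other ESC regions and 18.3% of MEF-only regions. A further step out, 1195 (7.23%) were over 500 kb away, against 1.33% and 2.97%. ESC-only regions were narrower than other ESC regions, with a median width of 637 bp against 884 bp. A merged region spans the peaks of all its libraries, so more libraries can make it wider. The median was 559 bp for MEF-only regions, 607 bp for ESC regions with a peak in 1 earlier library and 1156 bp for regions in all 10. Whether a position was exonic or intronic was not analysed here.

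The heights of the ESC-only regions in the ESC lists were modest. Fold is the authors' fold enrichment of a peak over its local background, and where a region held several peaks of a list the one with the lowest p-value was used. The median fold was 5.17 in ESC replicate 1 (quartiles 4.02 and 7.45) and 4.80 in replicate 2 (3.56 and 6.97). Other ESC regions had medians of 6.91 and 5.69. The ratio of the medians was 0.796 ± 0.0675 (SD, n = 2 libraries). Of the ESC-only regions 166 (1.01%) ranked at or above the 90th percentile of both ESC lists, against 14.4% of other ESC regions. Spearman's rho of the fold between the ESC replicates was 0.519 over 16521 ESC-only regions and 0.732 over 42279 other ESC regions. These regions share 1 cell line and 1 pair of libraries, and the coefficients only describe how far both lists rank them alike.

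How deep each earlier list reached bears on every absence. From the authors' fold and p-value, the pileup (overlapping fragments at a peak) and its background were computed for 5000 peaks of each list. The background pileup ranged from 2.33 (DAY6 replicate 2) to 8.32 (MEF replicate 2) over the earlier libraries and was 3.48 and 5.46 in ESC. A −log10 p of 5, the smallest in the lists, was taken as the cut. The smallest fold that could be listed at that background was then between 2.57 and 3.61 in the 8 earlier lists. It was 2.57 in MEF replicate 2, 2.64 and 2.63 at DAY9, and 3.61 in DAY6 replicate 2. Above 3.61 in both ESC lists were 10614 ESC-only regions (64.2%), against 78.4% of other ESC regions, and 2313 (14.0%) were above 7.21, which is 2 times that limit. For the others a peak as low as the lower of their ESC folds could have gone unlisted in DAY6 replicate 2, so openness there was not detectable at this depth. The fold adds a constant to pileup and background, so the same enrichment gives a lower fold in a shallower list. Regions somewhat above 3.61 in ESC could therefore have gone unlisted too. The limit also holds only at the background pileup, where 46.3% to 61.6% of the peaks read in the earlier lists stood.

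Just outside the rule lay 3593 ESC regions with a peak in exactly 1 earlier library. That library was DAY9 replicate 1 for 1104 and DAY9 replicate 2 for 1133 of them, followed by DAY6 (379 and 243), MEF (376 and 271) and DAY3 (43 and 44). Their median fold in ESC was 5.13 and 4.34, beside 5.17 and 4.80 inside the rule. Around the ESC-only regions, 2017 (12.2%) lay within 1 kb of a region with an earlier peak and 6484 (39.2%) were more than 10 kb from all such regions.

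Chromosomes differed in how much of their ESC-open chromatin was ESC-only. Over the autosomes 15713 of 56837 ESC regions (27.6%) were, from 19.5% on chromosome 11 to 31.4% on chromosome 13. On the X chromosome 734 of 1846 (39.8%) were, and on the Y chromosome 74 of 117 (63.2%). The share of a list's peaks that fell on X was between 1.68% and 2.73% in the earlier libraries and 2.83% and 3.04% in ESC. On Y it was between 0.0680% and 0.126% in the earlier libraries and 0.157% and 0.264% in ESC. The part of the sex of the cells in these values was not tested.

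**Figure D2:**
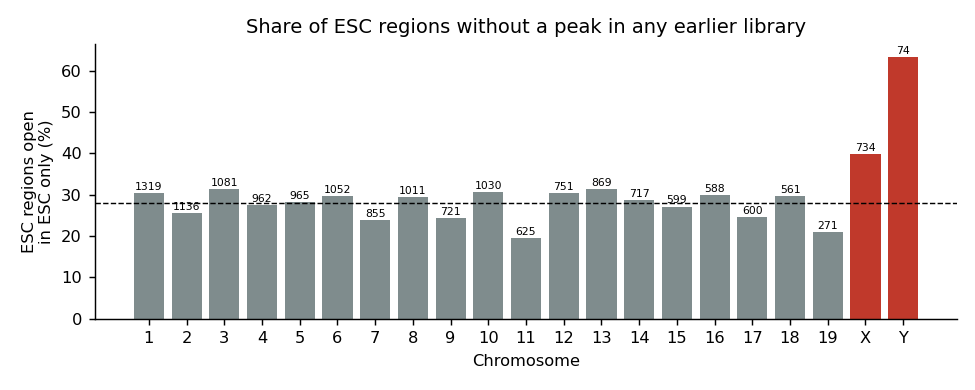
Bars give the share of ESC regions that were ESC-only (y axis, %) on each chromosome (x axis), the number above a bar counts the ESC-only regions, and the dashed line is the share over all chromosomes (28.1%). X (39.8%) and Y (63.2%), in red, are above all autosomes, which end at 31.4%.

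Neighbours on the chromosome were alike more often than the overall share. The nearest ESC region of an ESC-only region was itself ESC-only in 39.4%, while ESC-only regions were 28.1% of all ESC regions and the nearest neighbour of 23.1% of the other ESC regions. Linking ESC-only regions up to 12500 bp apart left 13146 single regions and 1271 pairs, and 252 clusters of 3 or more held 833 regions (5.04%). Linked in the same way, clusters held 8.83% of the MEF-only regions, 6.35% of the ESC regions without a MEF peak that were open at DAY9 and 28.5% of other ESC regions. Larger sets lie denser on the genome, so shares of sets of unequal size do not compare directly. Clusters held 0.501% of the 3593 ESC regions with a peak in 1 earlier library and 78.3% of all 208851 merged regions. Without ESC replicate 1 the share of ESC-only regions in clusters was 13.6%, and without replicate 2 it was 15.7%. The median gap between adjacent ESC-only regions was 91.4 kb.

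The densest clusters included the paired genes Dppa2 and Dppa4, which encode chromatin proteins of early embryos and pluripotent cells. Their cluster held 7 ESC-only regions over 42.0 kb at chr16:48279165-48321163, with folds from 3.22 to 6.10 in ESC replicate 1 and from 2.47 to 5.44 in replicate 2. One region covered an end of Dppa4 (chr16:48283423-48283925, fold 3.22 and 3.39) and another an end of Dppa2 (chr16:48309970-48310659, 3.55 and 4.78). Between the genes lay 1 ESC region with peaks in 2 earlier libraries, with folds of 5.38 and 10.0. These peaks were low: several folds are under the 3.61 limit of the shallowest earlier list. All 6 ESC regions nearest to Dppa4 and 5 of 6 nearest to Dppa2 were ESC-only.

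**Figure D3:**
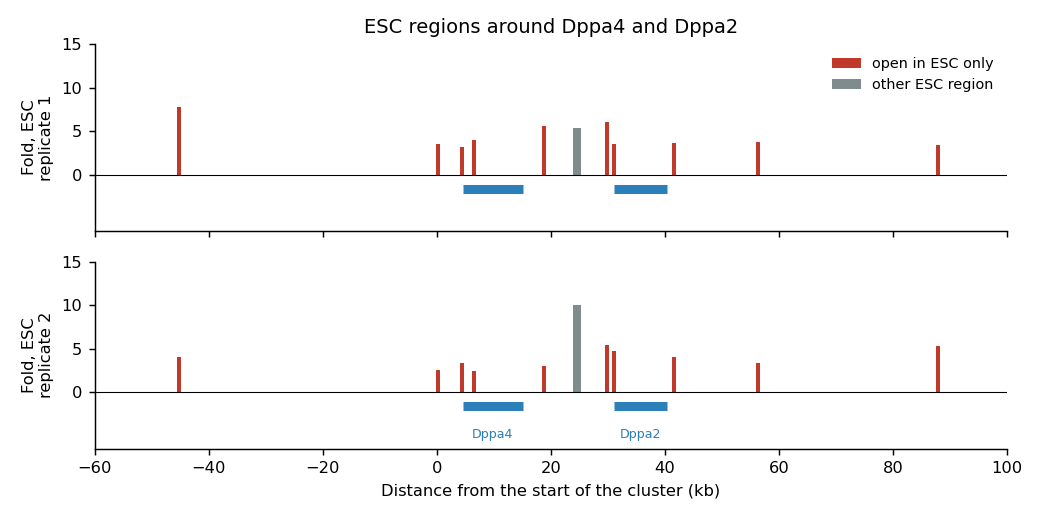
Bars give the authors' fold (y axis) in ESC replicate 1 (upper panel) and 2 (lower panel) of regions listed in both ESC libraries, by distance from the start of the cluster (x axis, kb), with ESC-only regions in red, the other ESC region in grey and gene bodies in blue. ESC-only regions cover 1 end of each gene, and the region with the highest fold in replicate 2 (10.0) is the grey one between them.

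Another cluster of 7 regions, over 33.4 kb at chr8:60838495-60871927, lay 18.5 to 51.4 kb from Hpf1, a cofactor of ADP-ribosylation. A cluster of 6 over 30.0 kb (chr12:63002363-63032402) was far from any coding gene: the nearest was Lrfn5, a synaptic adhesion protein, 1144 to 1174 kb away. Clusters of 6 regions also lay 37.8 to 70.7 kb from Gpbp1 (chr13:111527928-111561243) and inside Cntnap2, a contactin-associated adhesion protein (chr6:47181315-47225798). In the chromosome 12 cluster no other ESC region and no region of an earlier list lay between the ESC-only ones, and their folds ran from 3.35 to 7.36 and from 3.10 to 8.72. All 6 regions of the Cntnap2 cluster were inside the gene.

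Over 1 Mb windows the median was 6 ESC-only regions. A window on chromosome 13 (66000001 to 67000000) held the most, 33 of its 50 ESC regions, and the window before it held 23 of 47. Both carry an array of gene models related to zinc finger genes. On chromosome 16 the window with Dppa4, Dppa2 and Morc1, a germ cell repressor of transposons, held 24 of 40. On chromosome 8 (43000001 to 44000000) 22 of 26 ESC regions were ESC-only, and the genes there are Triml1, Triml2, Zfp42 and members of the Adam26 and Adam34 group. A window on chromosome 4 with Rex2 and zinc finger genes held 26 of 75.

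Of 21887 protein-coding genes, 7120 (32.5%) were the nearest gene of 1 or more ESC-only regions. Pcdh9, a protocadherin, had 32 of its 38 ESC regions ESC-only, and Tenm3, a teneurin of neuronal wiring, 30 of 48. Lrfn5 had 28 of 31, Immp2l (a mitochondrial peptidase subunit) 23 of 41 and Pcdh7 23 of 38. Lrrc4c, a netrin-G ligand, followed with 22 of 33, and Cdh9, Cntn5 (a contactin), Kcnt2 (a potassium channel), Pcdh17 and Rpia (an enzyme of the pentose phosphate pathway) had 21 each. A gene with wide empty flanks collects more regions by this rule, and the nearest gene is not shown to be the regulated one.

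Several gene families, chosen after the values were seen, were counted in the same way. ESC-only regions were 149 of 256 ESC regions (58.2%) nearest to protocadherin genes, 163 of 321 (50.8%) nearest to other cadherins and 118 of 206 (57.3%) nearest to contactins and their relatives. Among olfactory receptors they were 225 of 400 (56.3%), among vomeronasal receptors 140 of 243 (57.6%), and among genes named Zfp 314 of 1206 (26%). All ESC regions together stood at 28.1%. Of the 7509 ESC regions over 100 kb from any coding gene, whatever the family, 4166 were ESC-only. The part of this distance in the family shares was not tested.

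The highest ESC-only regions were ranked by the lower of their percentiles in the ESC lists. First was a region at chr4:26944205-26945149, 597 kb from its nearest coding gene Manea, with a fold of 23.3 in replicate 1 and 17.1 in replicate 2. A region at chr13:65414907-65415524 at the start of Gm31714 followed with 22.4 and 20.5, and one at chr5:55791664-55792506, 1671 kb from Stim2, with 19.96 and 17.2. Triml2 (10.9 and 9.65), a region 150 kb from Pcdh9 (17.1 and 13.8) and one 14.6 kb from Slc26a7 (20.5 and 15.7) came next. The first 10 were completed by regions inside 9930111J21Rik1 (16.4 and 16.9), Mageb16 (20.3 and 16.8), Corin (19.2 and 12.6) and Sox5 (14.8 and 14.3). All 10 had a fold above 7.21, 2 times the limit of the earlier lists, in both replicates.

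Core and naive pluripotency genes had many ESC-only regions around them and none at the start windows that could be read. Of 24 genes on the list, 19 (79.2%) were nearest to at least 1, beside 32.5% of all coding genes. Of the 231 ESC regions nearest to the list, 96 (41.6%) were ESC-only, beside 28.1% over all genes. Inside the gene lay 26 of the 96, and 55 were over 10 kb away. The part of distance in the share of this list was not tested. Their median fold was 4.53 in replicate 1 and 3.89 in replicate 2, beside 5.17 and 4.80 over all ESC-only regions. A start window is the 300 bases from 250 before to 50 after a gene start, and 14 of the 24 genes have one in the table. An ESC-only region overlapped none of these 14 windows, while 13 overlapped an ESC region that was already listed in an earlier library. Dppa2, Dppa4, Klf5, Prdm14 and Tfap2c are among the genes without a window. Counting either end of a gene, 10 ESC-only regions lay within 1 kb of an end of 7 of the 24 genes.

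**Figure D4:**
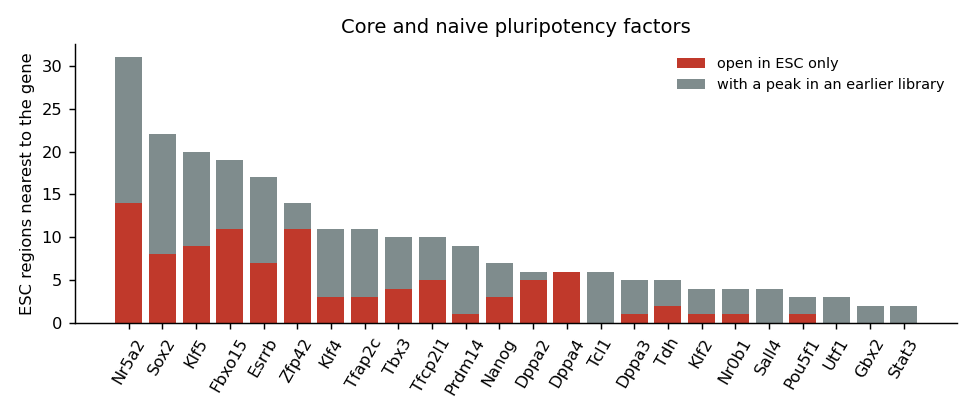
Stacked bars count the ESC regions nearest to each of 24 core and naive pluripotency genes (y axis, regions), split into ESC-only regions (red) and regions with a peak in an earlier library (grey). Nr5a2 has the most ESC-only regions (14), all 6 regions of Dppa4 are ESC-only, and Gbx2, Sall4, Stat3, Tcl1 and Utf1 have none.

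Nr5a2, an orphan nuclear receptor that acts with the naive network, had 14 ESC-only regions of 31. They reached from inside the gene to 458 kb away, with folds from 3.35 to 12.8 in replicate 1 and from 2.13 to 9.29 in replicate 2. Zfp42, the zinc finger gene known as Rex1, had 11 of 14, the farthest 86.0 kb away, and its region at chr8:43353314-43354100 had folds of 5.70 and 6.76. Fbxo15, an Oct4 target used as a reporter of reprogramming, had 11 of 19, of which 1 lay 21.1 kb away with folds of 12.8 and 7.87. For Sox2, 8 of 22 were ESC-only and none was inside the gene: the nearest was 15.8 kb away (8.93 and 6.30) and a second stood 82.3 kb away (12.6 and 4.96). Esrrb had 7 of 17, of which 6 lay inside the gene, with folds from 3.63 to 5.43 and from 2.87 to 4.49.

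Klf5 had 9 of 20 ESC-only regions, Tfcp2l1 5 of 10 and Tbx3 4 of 10, all genes of naive transcription factors. Nanog had 3 of 7: at chr6:122686627-122687323, 20.2 kb away, the folds were 3.09 and 3.11, at chr6:122713112-122713431 inside the gene 2.50 and 2.40, and at chr6:122715423-122716379 just past its end 6.11 and 4.18. Pou5f1, the gene of Oct4, had 1 of 3, at chr17:35490280-35490774 and 15.3 kb away, with folds of 5.60 and 4.42. Klf4, which the cassette also carries, had 3 of 11 between 51.2 and 386 kb away. Within the list, the ESC-only share therefore ran from 6 of 6 for Dppa4 to 0 of 6 for Tcl1.

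Germ line genes had ESC-only regions at their start windows, unlike the pluripotency genes for which a window is known. Of 24 genes, 14 (58.3%) were nearest to 1 or more, beside 32.5% of all coding genes. Of their 64 ESC regions, 40 (62.5%) were ESC-only. Much of this came from Zfp42 (11 of 14), which is counted in the pluripotency list too, and Rpl10l (7 of 9, up to 367 kb away). The share without them was not computed. At the start window itself, 10 of 22 genes (45.5%) had an ESC-only region, while 225 of 17492 protein-coding genes (1.29%) did. The 10 were Ddx4, Mael, Sycp1, Sycp3, Stk31, Rpl10l, Hormad1, Mov10l1, Slc25a31 and Asz1. The list was chosen with earlier results of these data known, so this contrast is description only. Within 1 kb of the start the count was 11 of 22, against 1.94% of coding genes, and the added gene was Zfp42, which the pluripotency list also holds. Within 1 kb of either gene end the lists were closer. There 13 ESC-only regions lay at 11 of the 24 germ line genes, against 10 at 7 of the 24 pluripotency genes, with Zfp42 in both.

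**Figure D5:**
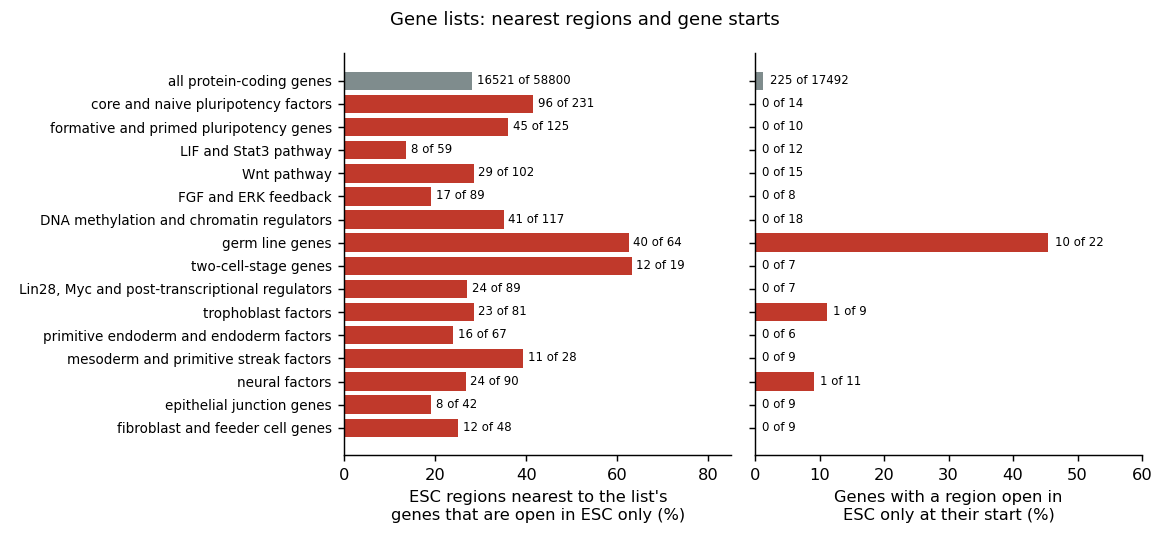
Left bars give the share of ESC regions nearest to the genes of a list that were ESC-only (x axis, %), and right bars the share of the list's genes with an ESC-only region at the start window (x axis, %), with the counts beside them and all coding genes in grey. On the right the germ line list stands at 10 of 22 (45.5%), and trophoblast and neural factors, with 1 gene each, are the only other lists above 0.

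The region at Rpl10l, a testis copy of a ribosomal protein gene, had folds of 8.36 and 6.52, and that at Stk31 10.7 and 7.28. Mael, a piRNA pathway protein, had 8.92 and 6.504, and Ddx4 9.64 and 6.19. The start of Sycp3 had 8.64 and 3.95, Slc25a31 6.47 and 3.56, and Hormad1 4.91 and 4.18. Those of Sycp1 (4.02 and 4.80), Asz1 (4.02 and 7.74) and Mov10l1 (4.46 and 3.41), genes of meiosis and the piRNA pathway, were the lowest in replicate 1. In replicate 2, Mov10l1 and Slc25a31 were under the 3.61 limit of the shallowest earlier list. Beyond the list, and named after the values were seen, starts of further meiotic and germ cell genes had one: Syce3 (11.4 and 7.90), Sohlh2 (8.58 and 7.90), Brdt (12.6 and 6.35), M1ap (14.9 and 5.27), Meioc (5.58 and 10.4), Spata22 (7.81 and 4.43), Topaz1 (5.35 and 6.66) and Syce1 (4.91 and 6.97). They were picked from 215 coding genes outside the list with an ESC-only region at the start. How many other germ cell genes lacked one was not counted, and on the list itself 12 of 22 genes lacked one.

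In GC and CpG content the germ line starts with an ESC-only region were close to starts with another ESC region. Their 12 windows with an ESC-only region had a median GC content of 64.2% and a median CpG observed over expected ratio of 0.765. Over all 408 start windows with an ESC-only region these were 53.3% and 0.380, close to those of all 32851 windows (52.7% and 0.384), and over windows with another ESC region 62.0% and 0.766. By gene, taking the highest window of each, the median CpG ratio was 0.78 over the 10 germ line genes with an ESC-only region at the start and 0.75 over the 12 without one. Counting genes and reading both strands, CACGTG was present at 8 of 10 germ line genes with an ESC-only region at the start. It was present at 1 of 8 germ line genes whose start had another ESC region, at 2 of 4 with no ESC region there, and at 8.91% of all coding genes. Of the 215 coding genes outside the list with an ESC-only region at the start, 15 (6.98%) had it. The list and the motif were chosen with earlier results of these data known, and no test was made. CACGTG is its own reverse complement, so both strands give 1 count.

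Among 20 motifs searched on both strands, the GC box GGGCGG was in 29.7% of the windows with an ESC-only region, 66.2% of those with another ESC region and 35.7% of all windows. The NRF1 letters GCGCATGCG were in 2.94%, 3.55% and 1.75%, and in 5 of the 12 germ line windows. Of the same 12, the GC box was in 9 and the ZIC letters CAGCAGG in 5. The E2F6 letters GCGGGAAA were in 1.47%, 2.00% and 1.07%, and in 2 of the 12. The octamer ATGCAAAT of POU factors was in 1.96%, 1.48% and 1.74%. AGGGGGCGC, part of the CTCF motif, was in 0.490%, 2.45% and 1.25%. CACGTG and GGGCGG stand in no other motif of the set, although GGGCGG and AGGGGGCGC share the run GGGCG. A match is only a run of letters.

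The 408 windows belonged to 381 genes, of which 225 were protein-coding and 156 long noncoding RNA genes. Ranked by the lower percentile, the first 10 regions at a start belonged to Gm31714 (which shares it with Gm40985), Triml2, Mageb16, 2410141K09Rik (19.9 and 13.4), Zfp936 (11.5 and 10.5), Gm45966 (15.4 and 13.5), Trim52 (12.9 and 12.2), Gm52894 (15.5 and 11.4), Gm19428 (16.2 and 12.9) and Zfp977 (13.5 and 12.1). Of these, Gm31714, 2410141K09Rik, Gm45966 and Gm19428 are on chromosome 13 between 65 and 67 Mb, and Zfp936 and Zfp977 on chromosome 7 between 42 and 44 Mb. Noncoding genes named Platr, for pluripotency-associated transcripts, were represented by Platr3 (11.7 and 7.26) and Platr20 (11.7 and 9.29), chosen after the values were seen. Of 1005 miRNA hairpins in RefSeq, 4 overlapped an ESC-only region: Mir8117, Mir138-2, Mir26a-2 and Mir6942.

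The chromosome 13 stretch held 56 ESC-only regions of 97 ESC regions, and 8 of its 17 coding genes with a start window had one there. The 300-base windows of these 8 were 71.3% to 96.0% identical in pairs, with a median of 86.1%, as the shared run printed for Gm31714 and 2410141K09Rik shows. The chromosome 7 stretch held 25 ESC-only regions of 56, and 5 of its 49 coding genes with a window had one at the start. Those 5 were 61.2% to 91.7% identical. In the chromosome 4 stretch around Rex2, 59 of 170 ESC regions were ESC-only, beside 28.1% over all ESC regions. There 6 of 23 coding genes had one at the start, 81.7% to 99.3% identical, with Rex2 and Zfp600 the closest pair. How reads that match several copies were placed is not given in the sources used here, and whether reads at these starts match more than 1 copy was not tested. The values of single copies are least certain for the closest pairs, such as Rex2 and Zfp600.

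The 2-cell-stage list, genes expressed in a short window of the early embryo and in rare stem cells, had 12 ESC-only regions of 19 ESC regions (63.2%). Zfp352 had 5 of 5, between 9.87 and 431 kb away, and none of the 7 starts in the table had one. Several genes of this list are near-identical copies as well. Among DNA methylation and chromatin regulators 41 of 117 (35.0%) were ESC-only, of which Tet2, a dioxygenase of methylated cytosine, had 9 of 23, Jarid2 6 of 15, Kdm4c 5 of 11 and Tet1 3 of 7. Formative and primed genes had 45 of 125 (36%), and for 20 of these Cdh2, the N-cadherin gene, was nearest. Of the 20, 2 lay inside Cdh2 and 18 were 133 to 1249 kb away, and without Cdh2, a count added after its values were seen, the list had 25 of 92 (27.2%), near the 28.1% over all genes.

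Signalling lists were lower or near the overall share. The LIF and Stat3 list had 8 of 59 (13.6%), FGF and ERK feedback 17 of 89 (19%) and the Wnt list 28.4% (29 regions), of which Lef1, a Wnt effector, had 8 of 16. Lin28, Myc and related regulators had 24 of 89 (27.0%), of which Myc had 10 of 27 and Mycn 7 of 21. Lineage lists ran from 23.9% for endoderm (16 of 67) over 26.7% for neural factors (24 of 90) and 28.4% for trophoblast (23 of 81) to 39.3% for mesoderm (11 of 28). By gene, mesoderm was the lowest of these lists. Its regions were nearest to 3 of 11 genes (27.3%), Hand2, Gsc and Msgn1, beside 32.5% of all coding genes. At the start windows the only lineage genes with an ESC-only region were Gata2, a trophoblast and blood factor, and Pax6, an eye and brain factor. Both stood as single genes, with folds of 2.45 and 2.41 at Gata2 and 2.78 and 3.18 at Pax6. All 4 folds were under the 3.61 limit of the shallowest earlier list. Epithelial junction genes had 8 of 42 (19%).

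Fibroblast genes, which also mark feeder cells, had 12 of 48 (25.0%), with 0 of 9 starts. These regions were nearest to 6 of 16 genes (37.5%), beside 32.5% of all coding genes. The 4 near Snai2 had folds from 3.32 to 3.79 and from 3.203 to 5.73, and Fn1 also had 4 of 9. The part of feeder cells in the ESC lists was not tested.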

How the data were processed

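Per the submitters' processing notes, reads were processed with Bowtie2 2.3.2, MACS2 2.1.1 and deepTools 2.3.6 and the mouse build mm10. Duplicate handling, transposase offset, reads matching several places and the peak threshold are not given in the sources used here. Each of the 10 deposited lists gives, per peak, a score, the authors' fold enrichment ratio and −log10 p-values and q-values. Summit positions and read depths were not used here, so no count model and no test applied.

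Peaks were merged and compared in Python 3.11.15 with pandas 2.3.3 and numpy 2.4.6, and genes came from RefSeq GRCm38.p6, which has the coordinates of mm10. The gene table has no strand, and the start table holds 27025 genes and none of chromosome 18. Percentiles rank peaks by −log10 p within a list. Pileups were solved from fold and p under a Poisson background (tolerance 0.01 in −log10 p). Scripts were tested on simulated lists. Genes named were those with most regions, the 10 highest regions, the 10 highest at gene starts, the 5 largest clusters and genes of 15 lists. Regions, lists and motifs were chosen with earlier results of these data known.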

Additional observations from a re-analysis of the deposited data

How the results depend on the processing

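With every list cut to the length of the shortest, the count of ESC-only regions was 8582, 26.6% of ESC regions, with 45.3% inside a gene, 1.63% in clusters, 4631 genes and a fold ratio to other ESC regions of 0.882. With the upper 50% of each list, the count was 9659 (30.9% of ESC regions), 5.18% near gene ends and 2.12% in clusters. With the upper 50% of the ESC lists alone, it was 6072 (19.4%), with 3.11% near gene ends, 41.7% inside genes, 0.642% in clusters, 3534 genes and a ratio of 0.905.

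Where peaks had to cover 50% of a region, 35.1% of ESC regions were ESC-only and 4.72% were near gene ends. Merging peaks within 500 bp gave 26.8%, 3.82% and 3.86% in clusters. With no earlier peak within 1 kb the values were 24.7%, 3.63%, 46.7% inside genes and 3.90% in clusters. Without chromosomes X and Y, added after seeing the data, 27.6% were ESC-only and 49.3% inside genes.

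Windows of 2.5 kb and 500 bp gave gene end shares of 8.002% and 2.83%, and starts of the RefSeq table, also added after seeing the data, 3.84%. Coding genes alone gave 38.6% inside a gene. Clusters linked at 5, 25 and 50 kb held 1.08%, 12.4% and 28.5%. Within 50 kb, 11458 genes had a region. The score in place of the fold gave a ratio of 0.620. On the given strand alone, the GC box share was 19.4%.

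Leaving out 1 library at a time, the count ran from 16570 to 35350, the share of ESC regions from 28.2% to 40.5%, near gene ends from 4.21% to 4.72%, inside genes from 48.4% to 54.4%, in clusters from 5.05% to 15.7%, genes from 7130 to 10739 and the ratio from 0.714 to 0.795. Each upper end came from leaving out an ESC library, except that of the ratio.

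No paired analysis was possible because no result comes from a test. With the replicate block, which here means the libraries of 1 replicate number alone, the values for number 1 were 36011 regions, 42.4%, 4.97%, 54.8%, 18.2%, 11270 genes and a ratio of 0.698, in the order of the previous paragraph. For number 2 they were 39784, 45.3%, 4.76%, 49.8%, 16.0%, 11089 and 0.709. Apart from leaving out libraries, 52 values moved by more than their limit and 23 did not. The limit was a fixed factor for counts, the SD of the ESC libraries for the ratio and a 95% binomial interval for shares. Such an interval counts regions as independent and is narrow, as from 27.7% to 28.5% for the share of ESC regions. How many values moved is therefore no measure of robustness. Peaks of the files carry no summit position, so the planned summit rule was not run. Counts and cluster shares depend on list length and on requiring both ESC libraries. Read depth limits absences: regions below the smallest listable fold could be open earlier and unlisted.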
